A study of Mus musculus with 6 samples.

Results

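The axon guidance ligands and receptors were followed through astrocyte-enriched cells from the striatum of male, wild-type C57BL/6 mice of 2 ages, postnatal day 3 (P3) and 3 months (3m). Members were taken by gene symbol alone, as all symbols that start like those of the ephrins and Eph receptors, semaphorins, plexins, neuropilins, Robo, Slit, netrin and Unc5 families, without the Slitrk genes. This gave 73 of the 32285 genes in the count table. Of these, 35 encode ligands and 33 receptors. The other 5 matched by symbol only, namely 3 antisense transcripts at the Plxna4 locus, Unc50 and Unc5cl, and none of them was counted as a guidance gene. Astrocytes had been pulled down magnetically by their antigen ACSA2, and each age had 3 droplet-based single-cell libraries. The labels give no treatment and do not say that the libraries came from separate animals, so p-values measure the spread between these libraries only.

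Guidance proteins steer growing axons and migrating cells by attraction or repulsion. Ephrins are bound to the membrane and activate Eph receptor kinases on the neighbouring cell. Semaphorins act through plexins, in class 3 with neuropilins as co-receptors, Slits act through Robo receptors, and netrins through Dcc and the Unc5 receptors. Astrocytes also carry these molecules, and ephrin A3 on astrocyte processes is known from its contact with Epha4 on the dendritic spines of neurons.

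All 6 astroglial markers were detected in the sums over astroglial cells at both ages, at 4008 to 4770 CPM (unique molecular identifiers, UMIs, per 1000000 UMIs of the same sum) per P3 library and 9749 to 10780 CPM per 3m library. There were 8874 astroglial cells at P3, with 22327104 to 30617140 UMIs per library, and 1118 at 3m, with 1157485 to 1843998. Low genes were therefore counted less precisely at 3m. The mitochondrial share moved with age, with a median per astroglial cell of 1.27% to 2.47% in the P3 libraries and 5.97% to 8.18% in the 3m libraries, and its part in the results was not tested. It reached 10% in 836 of 1653 barcodes of 3m replicate 1, and 37 barcode sequences occurred in more than 1 library. Oligodendrocyte markers also moved with age in the astroglial sums: all 7 were detected at 3m, with a summed level of 710 to 1872 CPM against 5.59 to 6.54 CPM at P3, where 2 of them had no UMI. The libraries capture the 3′ ends of transcripts, so no level was divided by gene length, and comparisons of level between genes rest on equal capture.

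Guidance genes were both gained and lost between P3 and 3m, with ligands making up most of both groups. Of 52 members with enough UMIs to be tested, 8 were called higher and 16 lower at 3m. A call needed an adjusted p no larger than 0.05 and a log2(fold change) no smaller than 1 either way, in edgeR's quasi-likelihood test with p-values adjusted over 13530 genes. Among all genes tested, 32.1% were called, 15.8% higher and 16.3% lower. The share of tested members was thus 15.4% higher and 30.8% lower. The remaining 21 members had at most 0.73 CPM on average at either age, and 3 of them had no UMI in any astroglial cell. The median log2(fold change) was -0.27 over the tested members and -0.04 over all genes tested. Among ligands, 5 of 27 tested were higher and 12 lower, and among receptors 3 of 24 were higher and 4 lower. In sums over cells such as these, fewer cells with a transcript and less transcript per cell cannot be told apart. The share of cells with a transcript was not computed.

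**Figure D1:**
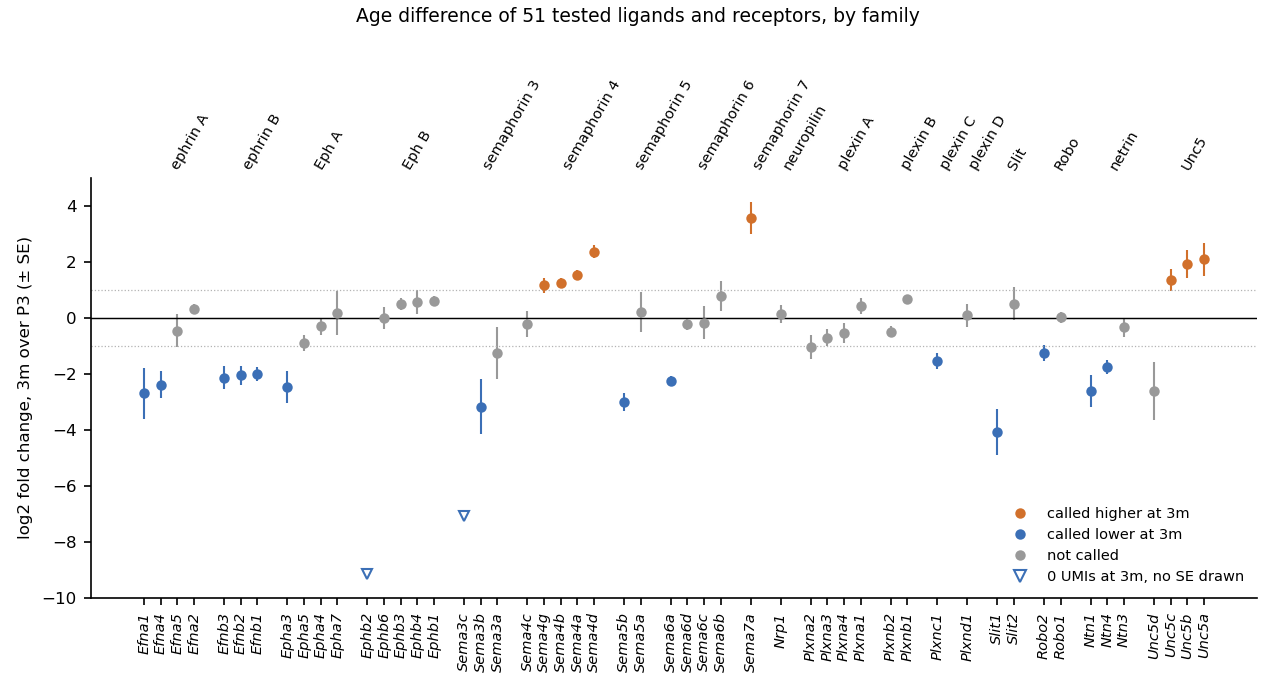
Log2(fold change) of 3m over P3 (y axis, with standard errors) for the 51 tested ligands and receptors, grouped by family (x axis). Orange and blue points were called higher and lower at 3m, grey points were not called, dotted lines mark a log2(fold change) of 1 either way, and open triangles have 0 UMIs at 3m, so that their fitted value is no measure of size. The 3 ephrin B genes all lie below zero, and 4 of the 5 tested class 4 semaphorins lie above it.

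The class 4 semaphorins, transmembrane ligands with plexins as receptors, rose: of 5 tested, 4 were called higher and none lower. Sema4b had 31.0, 27.1 and 34.7 CPM in P3 replicates 1 to 3 and 62.2, 59.7 and 71.3 CPM in 3m replicates 1 to 3, a log2(fold change) of 1.25 ± 0.16 (SE, adjusted p = 3.22e-05). Sema4a had 19.3, 13.6 and 14 CPM at P3 and 40.6, 38.5 and 39.4 CPM at 3m (1.53 ± 0.19, adjusted p = 2.49e-05). For Sema4d, whose receptor is Plxnb1, the libraries held 5.60, 7.28 and 9.23 CPM at P3 and 24.2, 34.2 and 40.8 CPM at 3m (2.37 ± 0.25, adjusted p = 5.81e-06). In each case every 3m library lay above every P3 library. Separate libraries were part of the rule that named called members of at least 10 CPM, here and below, so they add no support. Sema4g, at lower levels, went from 5.04 ± 0.25 CPM (SD, n = 3) to 9.97 ± 1.15 CPM (1.16 ± 0.27, adjusted p = 0.00340). Sema4c had 2.74 ± 0.58 CPM and 2.09 ± 0.48 CPM with overlapping libraries and no call, and Sema4f was too low to test.

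The opposite direction was seen for the ephrins. All 3 ephrin B genes, which encode transmembrane ligands of the EphB receptors, were lower at 3m. Efnb1 had 24.6, 23.5 and 28.5 CPM in the P3 libraries and 6.91, 5.97 and 4.08 CPM in the 3m libraries, a log2(fold change) of -1.99 ± 0.25 (adjusted p = 2.56e-05). Efnb2 had 12.8, 15.4 and 19.5 CPM at P3 and 1.73, 4.34 and 3.40 CPM at 3m (-2.06 ± 0.35, adjusted p = 3.18e-04). Efnb3 had 15.7, 9.83 and 18.7 CPM at P3 and 0.864, 3.25 and 4.08 CPM at 3m (-2.14 ± 0.41, adjusted p = 8.73e-04). No 3m library reached the lowest P3 library for any of the 3. Of the ephrin A genes, whose products are anchored by a lipid, Efna4 was lower as well (-2.39 ± 0.47, adjusted p = 0.00103), from 10.6 ± 1.0 CPM to 1.63 ± 1.44 CPM (SD, n = 3). Efna1 fell from 3.44 ± 1.5 CPM to 2 UMIs over the 3m libraries, a ratio of P3 to 3m of 7.36 with a 95% counting interval of 2.02 to 61.1. Its call was lost without 3m replicate 1 or without 3m replicate 2. These genes lie close together on chromosome 3, Efna1 at chr3:89271733-89281142 and Efna4 at chr3:89333390-89338028 (GRCm38), with Efna3, too low to test, between them at chr3:89313899-89322965. Efna2, the ephrin A gene with the highest level, had 22 ± 1.6 CPM at P3 and 24 ± 2.2 CPM at 3m, with overlapping libraries and no call.

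The promoters of these class 4 semaphorin and ephrin B genes are printed to show the sequence at the starts of genes that moved together. Each window runs from 250 bases before to 50 bases after the first start that RefSeq lists for the gene (GRCm38.p6), read 5′ to 3′ on the strand of the gene, with every CG dinucleotide in capitals. For Sema4d, with 3 starts listed, this window lies inside the gene (chr13:51685529-51793747). Which start astroglia use was not tested. The table of promoters holds no entry for Efnb3.
Sema4a, chr3:88461133-88461432, minus strand: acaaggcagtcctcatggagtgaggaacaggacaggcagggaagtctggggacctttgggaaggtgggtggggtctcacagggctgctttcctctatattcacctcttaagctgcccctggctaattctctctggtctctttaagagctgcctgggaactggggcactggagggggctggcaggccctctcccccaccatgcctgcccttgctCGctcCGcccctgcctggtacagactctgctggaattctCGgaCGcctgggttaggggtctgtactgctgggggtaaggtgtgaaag
Sema4b, chr7:80186620-80186919, plus strand: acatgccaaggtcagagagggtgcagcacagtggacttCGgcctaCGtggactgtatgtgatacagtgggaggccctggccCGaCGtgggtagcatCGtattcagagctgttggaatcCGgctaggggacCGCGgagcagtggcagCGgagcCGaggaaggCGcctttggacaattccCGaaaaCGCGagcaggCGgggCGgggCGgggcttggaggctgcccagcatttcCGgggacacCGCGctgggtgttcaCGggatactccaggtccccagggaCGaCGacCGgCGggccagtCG
Sema4d, chr13:51748761-51749060, minus strand: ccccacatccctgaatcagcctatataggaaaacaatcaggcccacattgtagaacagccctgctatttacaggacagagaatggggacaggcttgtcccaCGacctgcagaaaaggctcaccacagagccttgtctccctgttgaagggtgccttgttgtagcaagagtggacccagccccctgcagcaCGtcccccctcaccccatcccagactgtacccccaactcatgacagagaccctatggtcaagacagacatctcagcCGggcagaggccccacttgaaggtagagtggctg
Efnb1, chrX:99135811-99136110, plus strand: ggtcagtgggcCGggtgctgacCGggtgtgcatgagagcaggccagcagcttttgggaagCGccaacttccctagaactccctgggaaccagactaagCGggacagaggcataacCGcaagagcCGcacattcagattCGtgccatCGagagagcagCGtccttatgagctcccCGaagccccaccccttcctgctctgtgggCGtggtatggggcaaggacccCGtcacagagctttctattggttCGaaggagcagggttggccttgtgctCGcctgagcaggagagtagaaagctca
Efnb2, chr8:8661193-8661492, minus strand: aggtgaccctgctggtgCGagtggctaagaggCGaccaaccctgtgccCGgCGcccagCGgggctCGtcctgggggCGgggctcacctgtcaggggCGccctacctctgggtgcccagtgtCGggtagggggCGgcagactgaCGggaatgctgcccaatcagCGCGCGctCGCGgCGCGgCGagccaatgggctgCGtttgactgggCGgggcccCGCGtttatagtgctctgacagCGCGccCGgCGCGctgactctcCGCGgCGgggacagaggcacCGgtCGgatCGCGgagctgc

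The windows differed in CG content within both groups. Sema4a held 4 CG dinucleotides and Sema4d, at its start inside the gene, 3, whereas Sema4b held 26. Efnb1 held 14 and Efnb2 35, against a median of 7 over all 32851 windows. High and low counts both occurred among genes that rose, and the 2 genes that fell were both above the median. The motif AGGTCA, bound by nuclear receptors, was the only one searched, on both strands. It was present in any listed window of 3 of 19 called members with an entry (Sema4b, Ntn4 and Sema4d, the last at another start). Of all single windows, 16.3% held it. The first count is per gene and the second per window, so they cannot be compared directly.

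Among the other semaphorins, Sema6a, a transmembrane ligand of plexins A2 and A4, was the most abundant guidance gene of P3 astroglia and had the smallest adjusted p of the called members. It had 171, 138 and 151 CPM in the P3 libraries and 27.7, 24.4 and 32.6 CPM in the 3m libraries (-2.25 ± 0.18, adjusted p = 6.44e-07). Sema5b, another transmembrane semaphorin, went from 33.3, 31.0 and 27.4 CPM to 1.73, 5.42 and 2.04 CPM (-3.01 ± 0.33, adjusted p = 8.60e-06). In both, every 3m library lay below every P3 library. Sema6d, close to Sema6a in family, had 142, 81.5 and 80.3 CPM at P3 and 76.0, 78.1 and 74.7 CPM at 3m and was not called. The secreted class 3 was scarce in astroglia. Sema3b, the class 3 gene with the highest level there, had 2.39 ± 0.51 CPM at P3 and 1 UMI at 3m, a ratio of 10.9 (95% counting interval 1.92 to 431), and its call was lost without 3m replicate 2 or without 3m replicate 3. Sema3c had 95 UMIs at P3 and none at 3m, at least 1.83-fold lower when 3 UMIs over the 3m libraries are taken as the floor. This call too was lost without 3m replicate 2 or 3.

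Sema7a, a lipid-anchored semaphorin, and Plxnc1, its plexin receptor, moved in opposite directions in the sums over astroglial cells. Whether both changed in the same cells was not tested. Sema7a had 0.582, 0.425 and 0.773 CPM at P3 and 3.46, 2.71 and 12.2 CPM at 3m (3.56 ± 0.57, adjusted p = 2.09e-04). Plxnc1 had 25.4, 24 and 30.6 CPM at P3 and 4.32, 11.9 and 6.11 CPM at 3m (-1.55 ± 0.29, adjusted p = 5.82e-04). Neither gene's libraries overlapped between the ages, although for Sema7a a single 3m library, replicate 3, stood well above the others. No other plexin was called. Plxnb1 had 67.9, 52.3 and 57.0 CPM at P3 and 87.3, 87.3 and 70.0 CPM at 3m, a log2(fold change) of 0.66 ± 0.17 that passed the p threshold (adjusted p = 0.00532) but not the one on size. Plxna2, the plexin A gene with the highest level, had 10.1 ± 3.4 CPM at P3 and 4.69 ± 3.42 CPM at 3m, with overlapping libraries. Plxnd1, the plexin of class 3 semaphorins in vessels, was at 3.12 ± 0.52 and 2.81 ± 0.90 CPM. Nrp1, a neuropilin that also binds VEGF, had 30.2, 14.7 and 13 CPM at P3 and 21.6, 17.9 and 17 CPM at 3m, with the 3m libraries inside the range of the P3 libraries.

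Of the netrins, 2 of 3 tested fell. Of their Unc5 receptors 3 of 4 were called higher, at low levels, with each call lost when some single library was left out. Ntn1, the founding secreted netrin, had 11.6, 12.2 and 13.6 CPM at P3, 4.34 CPM in 3m replicate 2 and no UMI in the other two 3m libraries (-2.62 ± 0.58, adjusted p = 0.00216). Ntn4, a netrin of basement membranes, went from 23.2, 23.7 and 30.6 CPM to 5.18, 7.59 and 6.79 CPM (-1.76 ± 0.25, adjusted p = 7.73e-05). Both sets of libraries were separate. Ntn3 had 6.84 ± 0.95 CPM at P3 and 4.80 ± 0.88 CPM at 3m and was not called (-0.34 ± 0.33, adjusted p = 0.405). Unc5c, the Unc5 gene with the highest level, had 2.34 ± 0.58 CPM at P3 and 5.33 ± 1.38 CPM at 3m (1.35 ± 0.39, adjusted p = 0.0121), and its call was lost without 3m replicate 1. Unc5b (1.93 ± 0.50, adjusted p = 0.00648) and Unc5a (2.09 ± 0.59, adjusted p = 0.0101) had 14 and 10 UMIs in all 3m libraries together. The call of Unc5b was lost without 3m replicate 3 and without astroglial cells that held oligodendrocyte markers. Its 3.02 CPM at 3m lay below the 4.63 CPM that oligodendrocyte transcripts would give at the summed marker ratio described below. The call of Unc5a was lost without 3m replicate 2 or 3. Unc5a had 0.761, 0.490 and 0.529 CPM in the P3 libraries, so it entered the test through its 3m libraries. Unc5d, with 125 UMIs at P3 and 1 at 3m, was not called (-2.61 ± 1.04, adjusted p = 0.0528).

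Slit and Robo genes showed loss or no call. Slit1 had 5.73, 3.66 and 4.15 CPM at P3 and a single UMI in the 3m libraries, a ratio of 19.7 (95% counting interval 3.52 to 782). Robo2, a Slit receptor, had 20.7, 15.4 and 17.6 CPM at P3 and 5.18, 4.34 and 10.2 CPM at 3m (-1.26 ± 0.30, adjusted p = 0.00370). Its call was lost with the libraries thinned to equal depth (-0.52) and without sub-clusters 1, 4, 12 and 14 (-0.97). Robo1 stayed level, with 24.6, 18.1 and 25.8 CPM at P3 and 19, 20.6 and 20.4 CPM at 3m, a log2(fold change) of 0.02 ± 0.20. Slit2, the Slit gene with the highest mean over the 6 libraries, was not called, and 3m replicate 2 alone gave 9.22 CPM where the other two 3m libraries gave 0.864 and 1.36 CPM.

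Most Eph receptors were not called. Epha5, a receptor of ephrin A ligands and the most abundant guidance receptor of P3 astroglia, had 130, 84.3 and 108 CPM at P3 and 74.3, 26.0 and 55.7 CPM at 3m. Its log2(fold change) of -0.89 ± 0.28 passed the p threshold (adjusted p = 0.0166) and not the one on size. Epha4 had 26.5 ± 6.2 CPM and 19.6 ± 10 CPM, with overlapping libraries. Of the EphB receptors, Ephb3 had 24.1 ± 5.5 and 29.6 ± 6.0 CPM and Ephb1 21 ± 2.3 and 28.2 ± 1.9 CPM, neither of them called. Ephb3 missed the p threshold (adjusted p = 0.0758) and its libraries overlapped, whereas Ephb1 passed it (0.62 ± 0.18, adjusted p = 0.0114), with separate libraries, but not the threshold on size. The exceptions among the Eph receptors were Ephb2, with 5.91, 4.34 and 5.57 CPM at P3 and no UMI at 3m (at least 7.73-fold lower), and Epha3, which went from 5.73 ± 0.71 CPM to 0.830 ± 0.814 CPM (-2.48 ± 0.58, adjusted p = 0.00328).

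**Figure D2:**
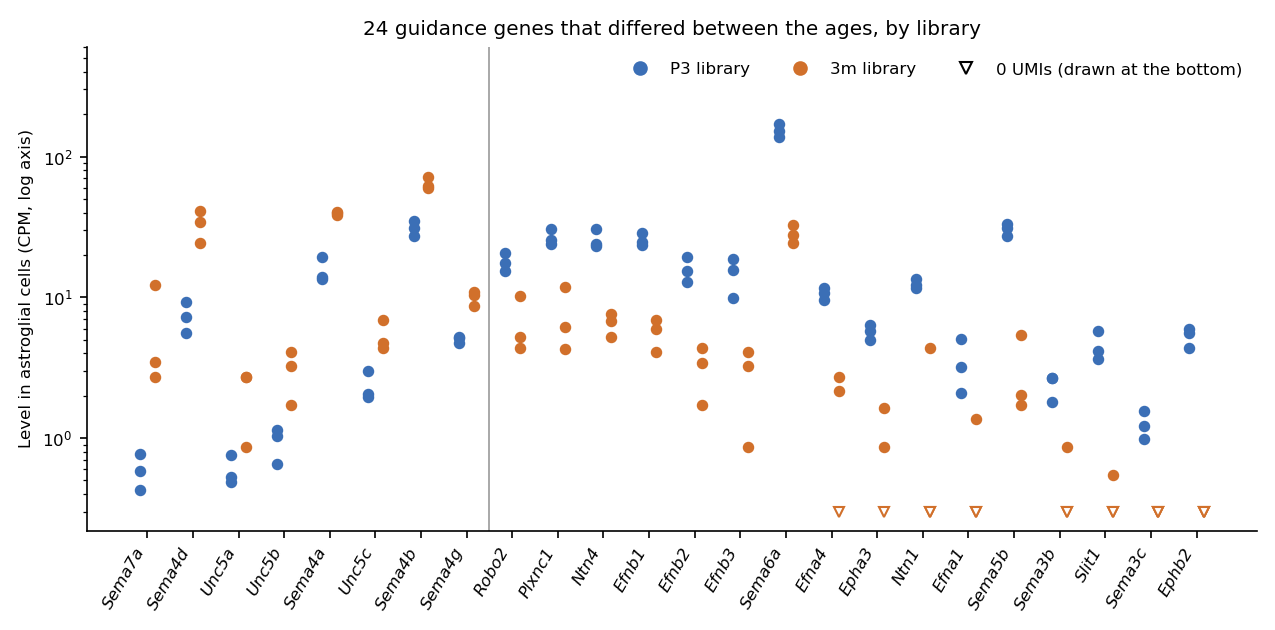
Level of the 24 called members in astroglial cells (y axis, CPM on a log axis) in each P3 library (blue) and each 3m library (orange), with genes on the x axis ordered by fold change. Open triangles drawn at the bottom are libraries with 0 UMIs. The libraries of the ages do not overlap for any of the 24 genes, a separation that the thresholds for a call favour.

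The libraries of the ages did not overlap for any of the 24 called members. The thresholds for a call favour such separation, so it adds little to the calls. Without overlap, 11 of 52 tested members were higher and 23 lower at 3m, against 21.3% and 37.7% of all genes tested. The share of members that were higher was thus near that of all genes. Left out as doubtful on quality or makeup, 3m replicate 1 and P3 replicate 3 together moved the counts to 7 higher and 16 lower of 52 tested, with the calls of Efna1, Sema3c and Unc5c lost, and leaving out the sub-clusters that came mostly from a single library gave 6 higher and 16 lower of 45 tested.

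Several of the genes that rose are also genes of mature oligodendrocytes, a class with enough cells to sum at 3m only. In the 1731 oligodendrocytes Sema4d reached 190 CPM, Unc5b 130 CPM, Unc5c 33.1 CPM and Sema7a 18.7 CPM, whereas Sema4a, Sema4b and Sema4g had 1.07, 1.16 and 1.43 CPM and Unc5a 0.0894 CPM. The summed oligodendrocyte markers of 3m astroglia stood at 3.56% of their level in oligodendrocytes, with single markers between 0.240% and 20%. At the summed ratio, oligodendrocyte transcripts would give 6.75 CPM of Sema4d, where 33.0 CPM were measured, and 4.63 CPM of Unc5b, where 3.02 CPM were measured. Efnb3 set a lower ratio: at 332 CPM in oligodendrocytes and 2.91 CPM in the summed 3m astroglia, it stood at 0.875%, and at this ratio Sema4d would receive 1.66 CPM and Unc5b 1.14 CPM. Plxnb3, with 3 UMIs in 3m astroglia, stood at 1.62%. The highest single ratio would give 37.9 CPM of Sema4d, 26 CPM of Unc5b and 6.61 CPM of Unc5c, each above the measured level (5.33 CPM for Unc5c), and 3.73 CPM of Sema7a, below its 6.13 CPM. Without astroglial cells that held over 2 UMIs of 5 of these markers, 7 of the 8 risers were still called, and Unc5b was not. For Sema4a, Sema4b, Sema4g and Unc5a the highest single ratio gave under 0.3 CPM. Sema6a, which fell, had 186 CPM in oligodendrocytes, and the highest single ratio would give 37.1 CPM, above its 28.2 CPM at 3m. How much oligodendrocyte transcripts gave to these levels was not tested.

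Other guidance genes, from a list of 75 further cues, receptors and transducers, moved both ways. Of 68 tested, 14 were higher and 14 lower (20.6% each), against 15.8% and 16.3% of all genes tested. Among receptors and co-receptors 6 of 16 tested were higher and 4 lower (37.5% and 25%). The oligodendrocyte ratios were not applied to this list. The netrin receptor Dcc rose from 2.94 ± 0.78 to 7.07 ± 3.52 CPM (log2 fold change 1.42, adjusted p = 0.0128, libraries overlapping), and the netrin G ligand receptor Lrrc4c from 10.9 ± 3.1 to 32.9 ± 4.6 CPM (1.77, adjusted p = 5.31e-05). Of the collapsins' cytosolic mediators, Dpysl3 fell from 88.1 ± 9.6 to 3.85 ± 1.63 CPM (-4.34, adjusted p = 4.31e-08). Among plexin effectors, the GTPase Rnd1 was lower (19.9 ± 3.6 to 0.695 ± 0.161 CPM, -4.67, adjusted p = 1.58e-06) and the exchange factor Farp1 higher (18.3 ± 2.9 to 69.2 ± 12.2 CPM, 2.13, adjusted p = 1.04e-06). Ngef, an exchange factor downstream of EphA receptors, was also higher (29.9 ± 6.8 to 86.5 ± 21.7 CPM, 1.72, adjusted p = 1.34e-05). These 6 genes were chosen after their values were seen.

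The pseudotime of the study orders cells of the main astroglial branch from cycling progenitors through P3 astrocytes to the 3m clusters, and splits them into bins. Since it was computed from expression in the same cells, the levels along it are a description. Within P3 alone, from bins 2 to 5 (361 cells) to bins 13 and 14 (2901 cells), 27 of 35 members with at least 100 UMIs were higher late than early in every P3 library, and 1, Ntn1, was lower in all 3. Over all genes with that many UMIs, 45.9% were higher late in every P3 library and 31.9% lower. Cells of bins 2 to 5 held 6967566 UMIs in all and the far more numerous cells of bins 13 and 14 held 22060424, so late cells were shallower, and the part of depth in these counts was not tested.

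Sema4a, Sema4b and Sema4d had higher levels late than early in P3 and higher ones again at 3m, as did Sema4g (pooled 1.15, 5.12 and 10.8 CPM), whereas Sema4c went from 4.31 through 2.22 to 1.54 CPM. Sema4a had 5.23, 4.58 and 4.12 CPM in bins 2 to 5 of the P3 libraries, 24.6, 19.8 and 21.5 CPM in bins 13 and 14, and 42.3, 41.0 and 41.1 CPM in bins 15 to 19 of the 3m libraries. Sema4b went through 15.7, 14 and 16 CPM and 37.3, 41.0 and 52.6 CPM to 64.4, 75.9 and 76.5 CPM. Sema4d lay at 2.15, 1.18 and 1.36 CPM in the pooled P3 stages up to bin 12, at 8.82, 10.4 and 10.8 CPM in bins 13 and 14, and at 26.0, 44.1 and 40.2 CPM in the 3m bins. None of the 3 genes had overlapping libraries between these stages.

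A second course was a rise within P3 followed by a low level at 3m. Sema6a had 95.5, 93.9 and 106 CPM in bins 2 to 5 and 191, 197 and 206 CPM in bins 13 and 14, but 27.9, 28.7 and 33.0 CPM in the 3m bins. Sema5b had 20.9, 22.6 and 21.1 CPM, then 37.0, 38.4 and 35.4 CPM, then 1.92, 4.10 and 1.61 CPM. For both genes the comparison of the ages as wholes thus sets a mean over P3 stages against a 3m level far below the late P3 stage. Another course ended at its late P3 level: Plxnb1, the receptor of Sema4d, rose from 22.2, 25.8 and 27.3 CPM to 82.7, 77.3 and 83.6 CPM and had 80.8, 94.3 and 65.2 CPM at 3m. Ephb3, Robo1 and Nrp1 also rose within P3 in each library (pooled 9.76 to 34.8, 10.5 to 31.1 and 11.5 to 27 CPM). At 3m they had 30.4, 20.6 and 15 CPM. The 3m libraries of Ephb3 overlapped those of bins 13 and 14. For Robo1 and Nrp1 every 3m library lay below every library of bins 13 and 14, so these genes did not end at their late P3 level.

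**Figure D3:**
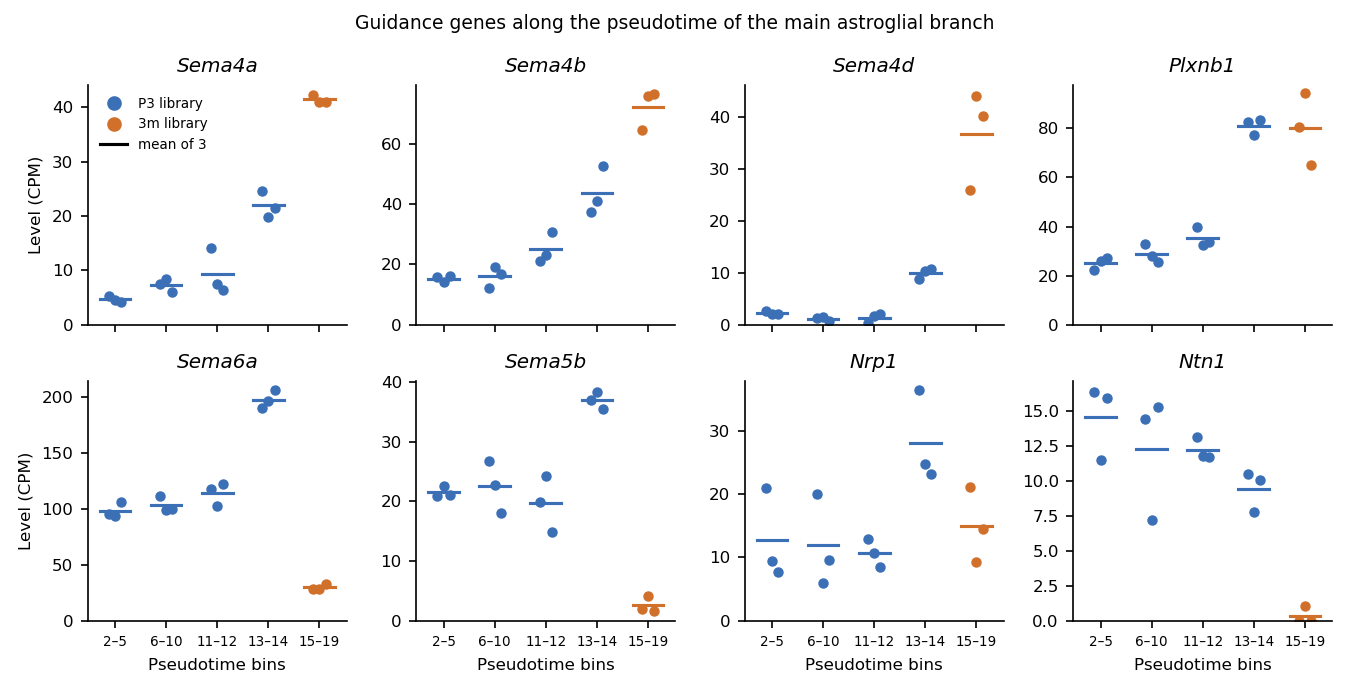
Level (y axis, CPM) of 8 guidance genes in successive groups of pseudotime bins (x axis), with 1 point per library (blue P3, orange 3m) and the mean of 3 libraries as a bar. Sema4a, Sema4b and Sema4d rise in steps to 3m, Plxnb1 levels off, Sema6a and Sema5b peak in bins 13 and 14 of P3, and Ntn1 declines.

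Levels of guidance genes also varied between the astroglial sub-clusters of P3, in a share of members near that of all genes. These sub-clusters were made from expression, so the levels are again a description. The study ran its main trajectory from cycling cells through sub-clusters 2 and 0 of P3 to 7 and 14 of 3m and likened sub-clusters 1, 9 and 11 of P3 to sub-cluster 0. These are together called the main branch here. It put sub-clusters 3, 4, 5, 10, 12 and 15 of P3 and 13 and 16 of 3m on side branches, which it related to regions outside the telencephalon. Emx1 and Agt, chosen after their values were seen, did not follow this division. Sub-cluster 10 held Emx1, a gene of the dorsal telencephalon, at 32 CPM, and at most 7.05 CPM was seen elsewhere. Sub-cluster 11, on the main branch, shared high Agt with sub-cluster 13 of 3m (917 and 1100 CPM, against at most 60.7 CPM in the other main branch sub-clusters). Sub-clusters are therefore given by number below, and those of the 2 ages are not matched. Sub-cluster 1 came mostly from P3 replicate 1, sub-clusters 4 and 12 from P3 replicate 3, and sub-cluster 14 from 3m replicate 1.

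Sub-clusters 3 and 5 shared high Ephb1, Plxnc1, Efnb2 and Ntn4 with almost no Nrp1. In sub-cluster 3, the P3 libraries had 70.8, 50.5 and 57.1 CPM of Ephb1, and in sub-cluster 0, the largest of the main branch, 21.3, 15 and 15.2 CPM. Nrp1 showed the reverse, with 3.08, 2.06 and 2.72 CPM in sub-cluster 3 and 47.6, 24.7 and 25.4 CPM in sub-cluster 0. Sub-clusters 5 and 3 had like pooled levels of Ephb1 (54.6 and 54.4 CPM), Plxnc1 (64.2 and 69.5 CPM), Ntn4 (47 and 55.7 CPM) and Efnb2 (39.7 and 41 CPM). Sub-cluster 10 carried the highest Epha5 (239 CPM), Epha4 (126 CPM), Efnb1 (101 CPM) and Ntn4 (94.2 CPM) of any P3 sub-cluster and the highest Unc5d (16.9 CPM), but 9.67 CPM of Ephb1. Sub-cluster 15 held the highest P3 level of Slit2 (19.9 CPM). Sema4b stood at 118 and 106 CPM in sub-clusters 4 and 12 of P3. For this gene, sub-clusters 7, 14, 13 and 16 of 3m had 75.7, 66.3, 50.1 and 4.02 CPM. In sub-cluster 16, where few UMIs were counted, Sema4a and Sema4d were also low (4.02 and 8.04 CPM). Rises over all astroglia thus did not hold for every pair of sub-clusters.

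Sub-cluster 11 was the converse of these. Its P3 libraries had 80.8, 43.2 and 39.0 CPM of Nrp1, and its pooled levels were 3.41 CPM of Ephb1, 2.56 CPM of Efnb2, 4.69 CPM of Ntn4 and 5.12 CPM of Epha4. Slit1 was found mostly on the main branch (5.95 CPM over the P3 libraries, against 0.344 CPM on the side branches). At 3m, sub-cluster 13 had 33.4 CPM of Nrp1, 8.91 CPM of Ephb1 and no Efnb2, and sub-clusters 7 and 14 had 12.5 and 22.4 CPM of Nrp1 and 32.2 and 31.8 CPM of Ephb1. Ntn4 did not follow sub-cluster 11 there, with 11.1 CPM in sub-cluster 13, above the 5.37 and 4.67 CPM of sub-clusters 7 and 14. Slit1, at 13.2 CPM in sub-cluster 11, had 1 UMI in all 3m astroglia, too few to compare sub-clusters. Over the 44 members with at least 100 UMIs, 17 were higher and 16 lower on the side branches in all 3 P3 libraries (38.6% and 36.4%), against 41.1% and 28.4% of all genes with that many UMIs.

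**Figure D4:**
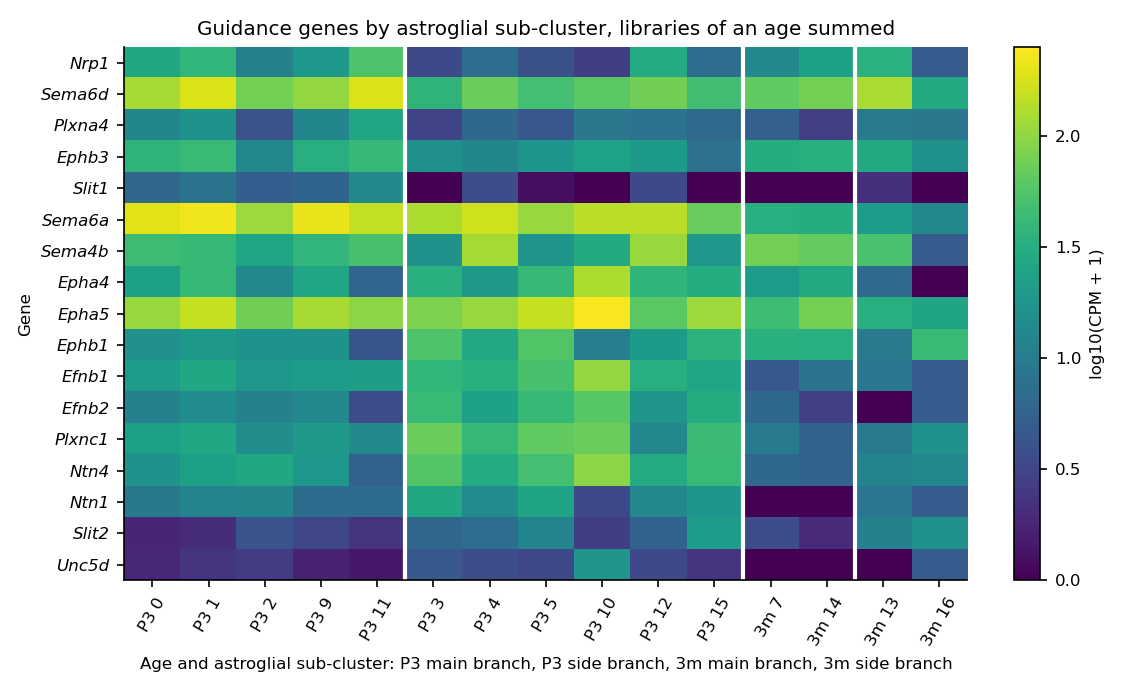
Level of 17 guidance genes (rows, log10 of CPM plus 1 as colour) in the non-cycling astroglial sub-clusters (columns), in the order P3 main branch, P3 side branch, 3m main branch and 3m side branch, with the libraries of an age summed. Nrp1 is low in P3 sub-clusters 3, 5 and 10, where Plxnc1, Efnb2 and Ntn4 are high, and sub-clusters 11 and 13 show the reverse for Nrp1 and Efnb2.

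Outside astroglia, the leading guidance genes differed between many cell types, while some, such as Sema6a, Sema6d and Plxnb2, were among the leaders of several. Oligodendrocytes of 3m were led by Efnb3, with 393, 304 and 267 CPM in the 3 libraries, Sema4d with 204, 198 and 154 CPM, and Sema6a with 173, 215 and 166 CPM. They also held 41.3 CPM of Plxnb3, against 0.129 CPM in P3 astroglia. Sema6a thus stood at 186 CPM in oligodendrocytes where it was at 27.9 CPM in the astroglia of the same age. The precursors of P3, in 94 cells, were led by Epha5 (287, 159 and 140 CPM), Sema5a (66.1, 69.1 and 140 CPM) and Sema6a (22, 79.5 and 88.5 CPM).

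Endothelial cells formed clusters that were split by age, so clusters 7 of P3 (605 cells) and 17 of 3m (163 cells) were set side by side. Cluster 7 was led by Plxnd1 (173, 174 and 144 CPM), Sema6d (184, 108 and 104 CPM) and Nrp1 (151, 102 and 111 CPM). Cluster 17 was led by Sema3c, at 308, 218 and 290 CPM, where cluster 7 had 12.2, 8.81 and 8.53 CPM. Sema7a, next in cluster 17, had 123, 121 and 161 CPM there and 46.5, 37.4 and 40.5 CPM in cluster 7. Robo4, the Robo gene of vessels, followed at 99.6, 85.6 and 122 CPM, close to the 89.6, 90 and 85.7 CPM of cluster 7. Sema3c therefore had its highest level in 3m endothelial cells and no UMI in 3m astroglia. Endothelial clusters 12 and 13 of P3 came mostly from P3 replicate 3. Cluster 12 was led by Sema4b (127 CPM), and cluster 13 by Sema6a (92.7 CPM) and Plxnd1 (64.7 CPM).

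Pericytes of P3 were led by Sema6d (320, 159 and 154 CPM) and Plxnb2 (93.9, 86.9 and 78.7 CPM). The 53 neurons of P3 had 69.5, 236 and 154 CPM of Robo2. Their Sema3a, 41 UMIs in all, came from P3 replicate 2 alone. In the unidentified cluster 23, with 31 cells at P3 and 14 at 3m, Plxnb2 led at both ages (207 and 163 CPM). Unc50, which is no guidance gene, was among the leading symbols of astroglia, pericytes and microglia of P3 (95.4, 74.1 and 71.1 CPM).

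Microglia were compared between the ages as well, while pericytes (16 cells) and precursors (13 cells) were too few at 3m. Microglia were led by Plxnb2, with 99.7, 106 and 79.4 CPM at P3 and 148, 69.5 and 131 CPM at 3m, and Nrp1, with 71.2, 63.8 and 79.4 CPM at P3 and 109, 59.6 and 93.7 CPM at 3m. The libraries of the ages overlapped for both. With 124 cells at P3 and 60 at 3m, only 3 members could be tested, and 0 were called with edgeR's quasi-likelihood test, where 10.2% of the 2679 genes tested were. Of the 3, 0 had an unadjusted p under 0.05, and 0 were called with DESeq2. A change in the other members was not detectable at this depth.

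**Figure D5:**
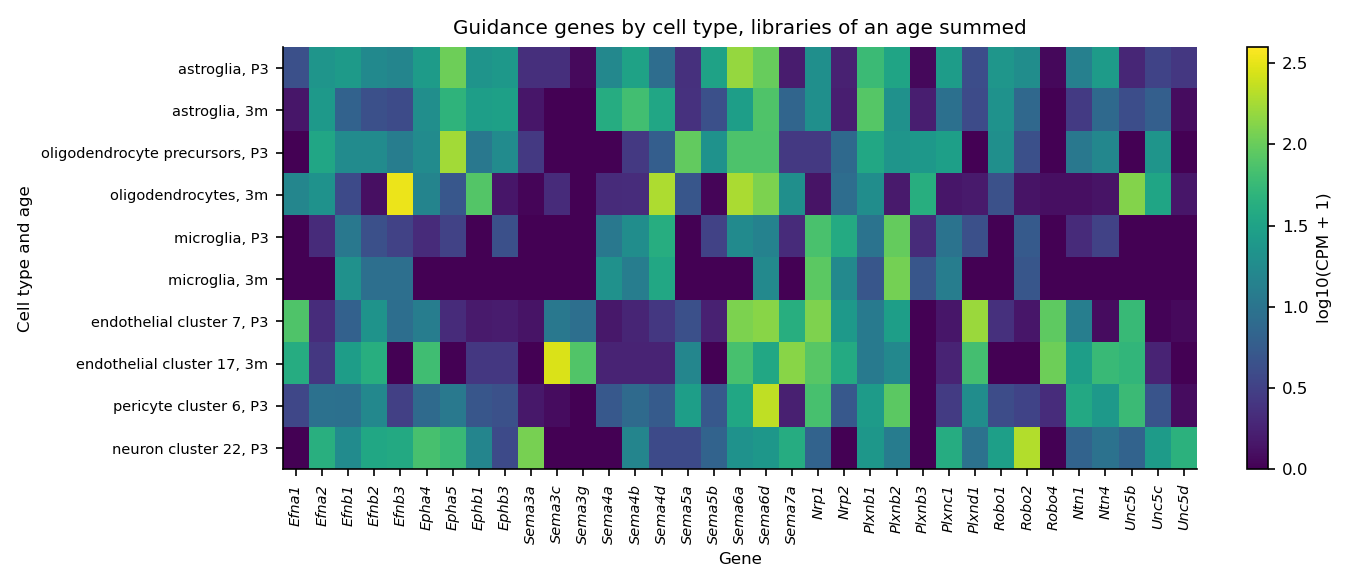
Level of 35 guidance genes (columns, log10 of CPM plus 1 as colour) in 10 combinations of cell type and age (rows), with libraries summed. Efnb3 and Sema4d are highest in oligodendrocytes of 3m, Sema3c and Sema7a in endothelial cluster 17 of 3m, and Robo2 and Sema3a in the neurons of P3.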

How the data were processed

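Single-cell libraries (10x Chromium, 3′ v3.1 chemistry) were grouped by age from the labels. The deposited table holds raw UMI counts per gene and barcode. Reads had been aligned to mm10 and counted by the authors with Cell Ranger. A deposited table of annotated cells gives the authors' clusters, made with Seurat (3.1.1 in the submitters' processing notes), and a pseudotime score with its bins, which has no unit. Cells under 500 genes or over 10% mitochondrial transcripts had been dropped. No doublet removal is described in the sources used here, and none was done.

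Counts were summed per library over astroglial cells or microglia. Sums were compared with edgeR 4.0.16 (R 4.3.3), by the quasi-likelihood test, two-sided, with TMM scaling, filterByExpr and Benjamini-Hochberg adjustment over all genes tested. The thresholds for a call were 0.05 for the adjusted p and 1 for the size of the log2(fold change). DESeq2 1.42.0 was an alternative. On simulated astroglial counts of 13156 genes, edgeR recovered 86.6% of changes of 2 and 98% of changes of 3 on the log2 scale. For a gene at 0 the floor was 3 UMIs over the age, and for called members with 1 to 3 UMIs a 95% exact counting interval was given. Floors and intervals cover counting error only.

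The members, the gene lists and the rule for named genes were chosen with earlier results of these data known. The rule names called members with a mean of at least 10 CPM at the higher age and separate libraries, the highest member of each family, and the 3 highest members with at least 50 UMIs in each cell type. Any other member was chosen after looking at its values. Coordinates come from GENCODE M21, promoters from RefSeq, where 61 of 73 members had an entry.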

Additional observations from a re-analysis of the deposited data

Results flagged for a closer look

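The change with age differed between the main branch and side branch sub-clusters for 10 of 31 members tested, where 22.2% of 10172 genes did (edgeR quasi-likelihood test of the interaction of age and branch, with library as a block, adjusted p at most 0.05). This test was added after the data were seen, and it takes sub-clusters that were made from expression of the same cells and that are not matched between the ages. On the log2 scale, the age change of the side branches exceeded that of the main branch by 3.52 for Nrp1, 3.30 for Efnb3, 2.90 for Plxna4 and 2.00 for Sema6d. The difference was -4.63 for Efnb2, -2.83 for Epha4, -2.61 for Ephb1, -1.63 for Plxnc1, -1.43 for Sema4d and -0.72 for Unc50. Few 3m UMIs stood behind some of these values, so their size is uncertain. Efnb2 had 1 UMI and Epha4 5 on the side branches of 3m, and Efnb3 had 2 on the main branch. No counting interval was computed for them. Nrp1 and Ephb1 had no call over all astroglia. Nrp1 had 35.5, 20.8 and 20 CPM in the main branch of P3 and 22.8, 9.32 and 14.5 CPM in that of 3m, but 3.34, 4.07 and 4.03 CPM in the side branches of P3 and 0, 28 and 30.6 CPM in those of 3m. Ephb1 had 18.3, 14.1 and 15.1 CPM in the main branch of P3 and 31.9, 37.3 and 28.2 CPM in that of 3m, and 44.3, 46.0 and 42.5 CPM in the side branches of P3 against 0, 15.2 and 21.9 CPM in those of 3m. The side branches of 3m replicate 1 rested on 17 cells. Epha4, Sema6d, Nrp1 and Ephb1 passed the test without each library in turn. The others did not in at least 1 case, Unc50, Plxna4, Efnb2 and Sema4d without 3m replicate 2, Efnb3 without 3m replicate 3 and Plxnc1 without any of 4 libraries. Sub-cluster 11 was counted with the main branch at P3, and sub-cluster 13 with the side branches at 3m. Both had high Nrp1 (52.1 and 33.4 CPM) and low Ephb1 (3.41 and 8.91 CPM). These differences are therefore not age changes of matched cells, and the part of the makeup of the branches in them was not tested.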

How the results depend on the processing

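Members called in astroglia numbered 24, and between 22 and 27 with RLE scaling, library totals, no filter on low counts, DESeq2, the replicate block, or without cycling sub-clusters, cluster 19, oligodendrocyte marker cells or side branch cells. The count fell to 9 with every library thinned to the smallest total (22 members tested, all 9 among the 24) and to 15 with a stricter cell filter (over 1000 genes, under 5% mitochondrial UMIs). Leaving out 1 library gave 14 to 24, the lowest without P3 replicate 1 (14) and P3 replicate 3 (15), where only 31 members could be tested. None of the 24 had the opposite sign in those of the 20 alternatives that tested it (11 for Unc5a, 12 for Sema3c and 13 for Sema7a), and Efnb1, Ntn4, Sema4a, Sema4d, Sema5b and Sema6a were tested and called in all 20. The call of Ntn1 was lost with DESeq2, and that of Sema4g with library totals, without cycling cells and under the stricter filter, which also ended those of Efnb2, Plxnc1 and Slit1. Efnb3 and Sema4b were not called on side branch cells alone. On side branch cells alone 17 members were called (22 tested, 10 of them among the 24). This count was not set against the share of all genes under the same setting, so it is no result about the members. Library totals moved the median of all genes to -0.24. The other guidance genes numbered 28, and 16 when thinned, and 18 to 27 without 1 library. No member of microglia was called in any of 12 alternatives. Members that differed by branch numbered 5 to 10 without 1 library, 5 without 3m replicate 2. Among named genes without a call, the sign turned for Efna2 (-0.28) and Plxnd1 (-1.40) under the stricter filter, Nrp1 on the main branch (-0.49), Robo1 with library totals (-0.19) and thinned (-0.28), Sema6d without P3 replicate 1 (0.12, lowest -0.33 without another library) and on side branches (1.38), and Slit2 without 3m replicate 2 (-1.47, highest 0.85 without another library). Whether the replicate numbers pair the samples is not known. Same-numbered libraries deviated with correlations of 0.206, 0.0993 and 0.039, which cannot decide it with 3 libraries per age. The replicate block gave 26 members, 28 other guidance genes and 0 in microglia. Depth at 3m limits every gene under about 1 CPM.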
